A study of Mus musculus with 37 samples.

Results

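The genes described here are 9 regulators and markers of cell cycle exit and cellular senescence, taken by symbol from the 24421 symbols of a lung count table. They are the INK4 inhibitors Cdkn2a, Cdkn2b, Cdkn2c and Cdkn2d, the CIP/KIP inhibitors Cdkn1b and Cdkn1c, the retinoblastoma gene Rb1, the lamin gene Lmnb1 and the lysosomal galactosidase gene Glb1. Lung RNA was sequenced from 37 C57BL/6 mice, 1 library per mouse by ear tag, in 6 groups. The groups were silicon + NR (6 mice, 4 male and 2 female), silicon (7 mice, 3 male and 4 female), GCR (7 mice, 3 male and 4 female), gamma (5 mice, 3 male and 2 female), mock + NR (5 mice, 4 male and 1 female) and mock (7 mice, 5 male and 2 female). Silicon mice received 0.75 Gy of accelerated silicon ions, GCR mice 0.75 Gy of a 5-ion mixture that simulates galactic cosmic radiation, and gamma mice 0.75 Gy of gamma rays from a caesium source. Mock mice went through the procedure at 0 Gy. Mice of the NR groups had NR, which is nicotinamide riboside, a precursor of NAD, at 12 mM in their water from before the exposure onward. No group carried a transgene or a deleted allele by its labels, and neither the age of the mice nor the time from exposure to dissection is stated in the labels.

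The INK4 proteins bind CDK4 and CDK6 and keep the D cyclins from activating them, whereas the CIP/KIP proteins bind complexes of cyclins E and A with CDK2. Active kinases phosphorylate the retinoblastoma protein, which then releases E2F factors that switch on replication and mitosis genes. In senescent cells, which have left the cell cycle for good after damage or repeated division, p16Ink4a from Cdkn2a is often high, lamin B1 is often lost and lysosomal galactosidase activity, the enzyme of Glb1, is the usual stain. In lung, senescence after irradiation is a common object of study, and the question that these comparisons address is whether the genes differ after space-like radiation and with NR.

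Cdkn2a (chromosome 4, 89274471 to 89294653, minus strand, mm10) and Cdkn2b (chromosome 4, 89306299 to 89311039, minus strand) are neighbours, yet they lay far apart in level, so the RefSeq windows around their starts are shown, from 250 bases before to 50 after each start in GRCm38.p6. Cdkn2a has an upstream start, which makes the p19Arf transcript, and a downstream start, which makes the p16Ink4a transcript. A table by gene symbol adds both, so the levels below cannot be split between them. Glb1 (chromosome 9, 114401076 to 114474898, plus strand) is added because lysosomal enzyme genes share a known response element. Capitals mark 1 of 3 words: an E2F word (TTTCCCGC, TTTCGCGC, TTTGCCGC or TTTGGCGC), the cyclic AMP response element TGACGTCA, or GTCACGTG, the core of the lysosomal element. The words were picked after the windows had been read.
Cdkn2a upstream start, chr4:89294570-89294869, minus strand: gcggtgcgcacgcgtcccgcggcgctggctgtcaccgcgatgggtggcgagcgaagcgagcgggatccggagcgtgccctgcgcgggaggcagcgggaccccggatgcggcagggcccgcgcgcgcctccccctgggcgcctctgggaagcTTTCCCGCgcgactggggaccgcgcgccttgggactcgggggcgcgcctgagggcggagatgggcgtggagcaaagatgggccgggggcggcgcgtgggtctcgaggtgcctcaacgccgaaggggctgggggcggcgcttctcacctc
Cdkn2a downstream start, chr4:89282143-89282442, minus strand: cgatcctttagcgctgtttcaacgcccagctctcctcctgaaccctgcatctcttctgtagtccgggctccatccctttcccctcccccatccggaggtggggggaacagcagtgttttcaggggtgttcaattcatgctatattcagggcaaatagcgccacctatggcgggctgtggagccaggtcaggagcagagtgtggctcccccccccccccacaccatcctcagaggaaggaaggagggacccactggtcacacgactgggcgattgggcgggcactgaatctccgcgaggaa
Cdkn2b, chr4:89310983-89311282, minus strand: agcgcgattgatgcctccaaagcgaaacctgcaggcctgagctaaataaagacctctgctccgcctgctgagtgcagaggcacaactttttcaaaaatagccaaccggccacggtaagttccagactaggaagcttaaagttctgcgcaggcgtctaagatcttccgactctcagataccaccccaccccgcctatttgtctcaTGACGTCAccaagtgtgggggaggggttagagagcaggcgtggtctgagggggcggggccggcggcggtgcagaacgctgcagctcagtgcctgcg
Glb1, chr9:114400828-114401127, plus strand: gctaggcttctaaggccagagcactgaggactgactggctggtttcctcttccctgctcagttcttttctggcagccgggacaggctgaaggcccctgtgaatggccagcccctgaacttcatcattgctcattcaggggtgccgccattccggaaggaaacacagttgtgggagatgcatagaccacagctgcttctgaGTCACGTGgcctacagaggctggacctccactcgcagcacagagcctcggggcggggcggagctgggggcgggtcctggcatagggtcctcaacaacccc

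The upstream Cdkn2a window held TTTCCCGC at -99 from the start and the Cdkn2b window held TGACGTCA at -46, while the downstream Cdkn2a window held none of the 3 kinds of word. The Glb1 window held GTCACGTG at -50. Searched on both strands, an E2F word was in 2.26% of 32851 windows of this length, TGACGTCA in 1.79% and GTCACGTG in 2.25%, and GTCACGTG was in 3 of 11 windows of lysosomal glycosidase genes. The general GC box GGGCGG was in 35.7% of all windows and in at least 1 window of each of the 6 genes here with a window, 5 times in that of Cdkn2d. These are matches of letters only.

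Every library held abundant lung RNA: Scgb1a1, of airway club cells, ran from 25010 to 301070 CPM (reads per 1000000 reads of the library), Sftpc, of alveolar type 2 cells, from 307 to 36039 CPM, and Pecam1, of endothelium, from 30.9 to 357 CPM. Total counts ran from 9485197 to 66381526 with a median of 28476462. Several libraries stood apart. In 13 (2 silicon + NR, 5 silicon, 2 mock + NR and 4 mock) the skeletal muscle gene Acta1 exceeded 1000 CPM, in 3 (silicon replicates 3 and 6, mock + NR replicate 4) the lymphoid stroma gene Ccl19 exceeded 100 CPM, in 4 (GCR replicates 2, 5 and 6, mock replicate 4) the ribosomal precursor Rn45s exceeded 100000 CPM, and in 2 (gamma replicates 3 and 4) the heart gene Nppa exceeded 10000 CPM. These are called muscle-rich, lymphoid-rich, high-Rn45s and heart-rich libraries here. The name heart-rich stands for a high Nppa level only and does not say which cardiac muscle the reads came from. Gamma replicate 5 is a female by its label, but its Xist level was 3.73 CPM and that of Ddx3y, on the Y chromosome, was 87.6 CPM. The label was kept wherever sex entered a fit. In whole tissue, fewer cells of a type and less RNA per cell cannot be told apart. CPM divides by all reads of a library, Rn45s among them, whereas the fits below scale libraries by TMM and hold sex. In GCR against mock, CPM therefore gave lower ratios than the fit. For Rb1 the ratio of mean CPM was 0.86 beside a fitted fold of 0.98, and the other genes of the set differed in the same direction.

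Cdkn1c was the most abundant of the 9 genes per length of exon and Cdkn2a by far the least. The median over the 37 libraries was 24.9 CPM per kilobase for Cdkn1c, 13.6 for Cdkn2d, 7.60 for Cdkn2b, 6.25 for Cdkn2c, 6.01 for Rb1, 5.59 for Glb1, 4.01 for Lmnb1, 3.19 for Cdkn1b and 0.0922 for Cdkn2a, all on the scale of CPM per kilobase. Rb1 was the steadiest and Cdkn2a the most variable: the biological coefficient of variation, which is the spread between mice left after counting noise, was 0.232 for Rb1, 0.255 for Cdkn2d, 0.261 for Glb1, 0.403 for Cdkn2c, 0.465 for Cdkn2b and 0.871 for Cdkn2a. The median over the 16977 genes tested was 0.332.

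**Figure D1:**
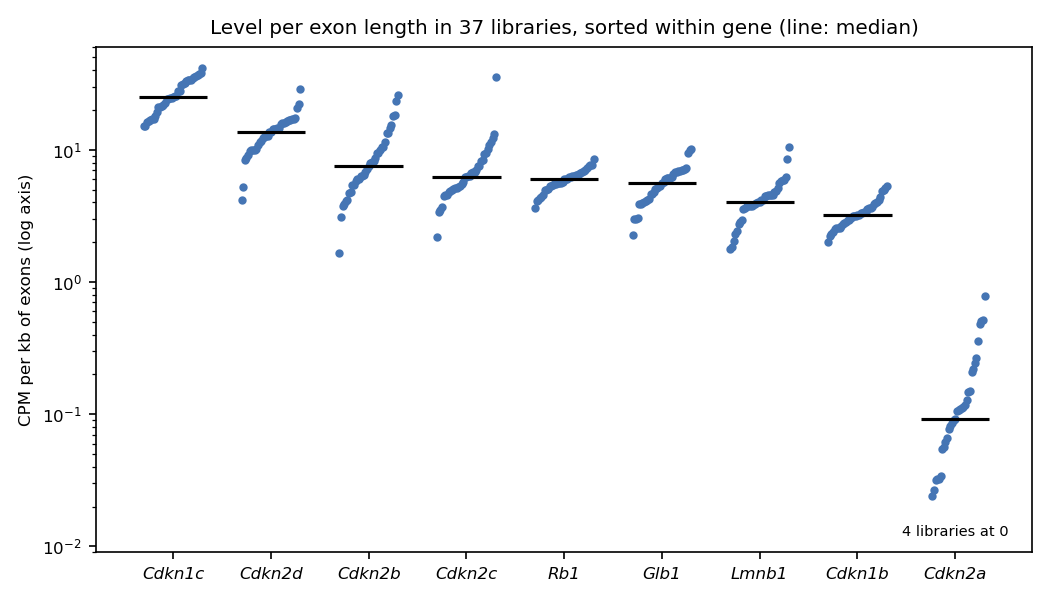
Level of each gene in CPM per kilobase of exons (log axis), 1 point per library (37), sorted within the gene, with the median as a line. Cdkn1c has the highest median (24.9), Cdkn2a the lowest (0.0922), and 4 libraries with no Cdkn2a read are given as a count.

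None of the 9 genes passed the threshold, an adjusted p under 0.05 in the edgeR quasi-likelihood test over all 16977 genes, in any of the 8 comparisons of the design, and in the 6 comparisons between groups the ranges of the libraries overlapped for all 9 genes, in 54 of 54 cases. How many of all genes overlap in this way was not computed, so the overlap is not read as a trait of the 9. The share of all genes called was 0% for silicon against mock, 16.6% for GCR against mock, 0.0295% for gamma against mock, 0% for silicon + NR against mock + NR, 0% for mock + NR against mock, 0% for silicon + NR against silicon, 0% for the interaction of silicon and NR, and 0.0589% for female against male. Only in GCR against mock did the test call enough genes for 0 of 9 to be set against a background, and there 34.4% of all genes had an unadjusted p under 0.05. Among the 9 genes an unadjusted p under 0.05 was reached by Lmnb1 in silicon against mock and by Cdkn2d in GCR against mock, and by no gene in the other 6 comparisons. DESeq2 called 0 of 9 in 7 comparisons and 1, Cdkn2d, in GCR against mock, among 3834 of all genes. Limma voom with sample quality weights called 1, Cdkn2d, in GCR against mock, among 1516 of all genes. It called 3 in silicon + NR against silicon, among 4207 of all genes, and 0 in the other 6 comparisons. With so many genes called, nothing about the 9 as a set is read from these counts. In the order of the 6 group means of each gene, 44 of 45 neighbouring pairs differed by no more than the larger of their SDs, and the ranges overlapped in all 45. Neighbours in a sorted order are the closest groups by construction, so these counts say nothing about groups farther apart in the order. In simulated counts at this size, the edgeR test called 14.9% of 1.5-fold, 58.2% of 2-fold and 95.5% of 4-fold changes in GCR against mock. Only 67, 67 and 66 of 16977 genes were changed there, all picked well above the level of Cdkn2a. The real comparison called 2811 genes, which makes the adjusted threshold less strict. The rates therefore hold for the simulated setting and are not the power of the real test.

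**Figure D2:**
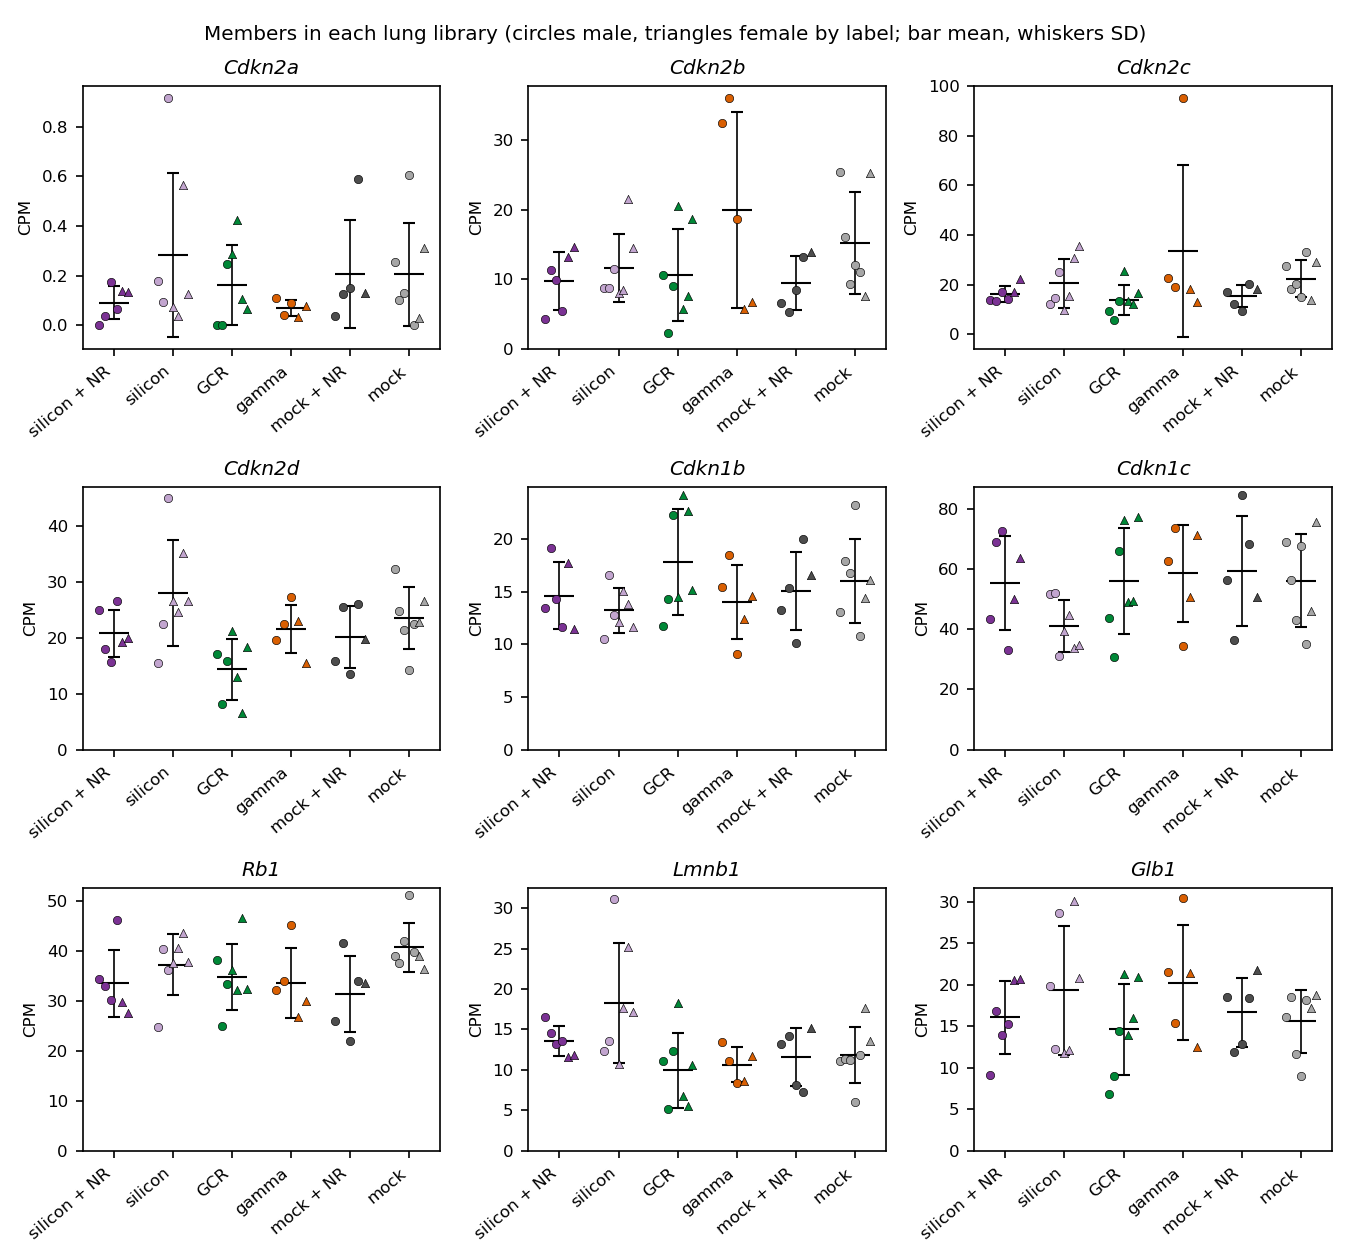
CPM of each gene in every library by group (circles male, triangles female by label, bar the mean, whiskers the SD). The groups overlap for all 9 genes, and single libraries such as gamma replicate 3 for Cdkn2c (95.3 CPM) stand far from their group.

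Cdkn2a, the gene of p16Ink4a and p19Arf, was barely detected. All 37 libraries together held 186 of its reads, from 0 to 26 in a library, with 0 in 4 libraries, and 3 counts, the limit that a count of 0 allows, correspond to 0.0452 CPM in the deepest library and 0.316 CPM in the shallowest. Summed over a group, the level was 0.0912 CPM in silicon + NR (95% Poisson interval 0.0521 to 0.148), 0.278 in silicon (0.210 to 0.361), 0.185 in GCR (0.129 to 0.256), 0.0695 in gamma (0.0333 to 0.128), 0.202 in mock + NR (0.135 to 0.289) and 0.184 in mock (0.131 to 0.251), intervals that cover counting error only. The highest libraries were silicon replicate 3 with 0.915 CPM, mock replicate 4 with 0.603 CPM, mock + NR replicate 4 with 0.589 CPM and silicon replicate 6 with 0.564 CPM. Of these, silicon replicates 3 and 6 and mock + NR replicate 4 are the 3 lymphoid-rich libraries. The fitted log2 differences had wide errors: -1.50 (SE 0.82, adjusted p = 0.446) in silicon + NR against silicon, -1.12 (SE 0.90, adjusted p = 1.00) in silicon + NR against mock + NR, -1.51 (SE 0.92, adjusted p = 0.617) in gamma against mock and 0.42 (SE 0.75, adjusted p = 0.869) in silicon against mock, by edgeR's quasi-likelihood test. The interval of the gamma difference, -3.38 to 0.35, includes 0. The counting intervals of gamma and mock above do not overlap, but they leave out the spread between mice, which the fit holds and which was the widest of the 9 genes.

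Cdkn2b, which encodes the INK4 protein p15 and answers to TGF-beta in epithelium, averaged 9.78 ± 4.16 CPM in silicon + NR, 11.6 ± 4.92 in silicon, 10.6 ± 6.66 in GCR, 19.9 ± 14.1 in gamma, 9.45 ± 3.90 in mock + NR and 15.3 ± 7.36 in mock (SD, n = 6, 7, 7, 5, 5 and 7). The gamma libraries had 32.4, 36.1, 18.7, 5.72 and 6.66 CPM, against a range of 7.55 to 25.4 CPM and a median of 12.1 CPM in mock, so gamma held values both above and below all of mock. The log2 difference in gamma against mock was 0.36 (95% interval -0.43 to 1.16), and it turned on single mice, with 0.04 without gamma replicate 2, 0.14 without replicate 1, 0.60 without replicate 5 and 0.62 without replicate 4. Without the muscle-rich libraries it was -0.14. In mock + NR the libraries had 6.56, 5.22, 8.42, 13.2 and 13.9 CPM, and the log2 difference from mock was -0.60 (-1.41 to 0.22).

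Cdkn2c (chromosome 4, 109660876 to 109667189, minus strand) encodes p18, another CDK4 and CDK6 inhibitor. It averaged 16.2 ± 3.39 CPM in silicon + NR, 20.4 ± 9.999 in silicon, 13.7 ± 6.15 in GCR, 33.6 ± 34.7 in gamma, 15.4 ± 4.59 in mock + NR and 22.4 ± 7.46 in mock (SD, same n). The gamma mean rests on 1 library: the gamma libraries had 22.5, 19.1, 95.3, 18.1 and 12.9 CPM, and the 95.3 is replicate 3, a heart-rich library, whereas the other heart-rich library, replicate 4, had 18.1 CPM. The log2 difference in gamma against mock was 0.58 (SE 0.33, adjusted p = 0.587 by edgeR) and without gamma replicate 3 it was -0.35 (adjusted p = 0.614). The summed level of 10 heart muscle genes ran from 693.9 to 54886 CPM in gamma, against 646.2 to 12404 CPM in mock. In the fit 10 of 10 were higher and 0 called, but the median summed level was 2588 CPM in gamma and 4765 CPM in mock. The list means of gamma replicates 3 and 4 were 11.1 and 11.6 log2 CPM, beside 5.12, 6.33 and 7.69 in replicates 1, 2 and 5. The part of cardiac muscle in the Cdkn2c value was not tested. In GCR Cdkn2c ran from 5.85 to 25.3 CPM with a median of 13.2 CPM, against 13.8 to 33.1 CPM with a median of 20.2 CPM in mock, and 1 of 7 GCR libraries was above the mock median. The log2 difference was -0.61 (SE 0.32, adjusted p = 0.179), and without the 2 heart-rich gamma libraries, which enter the shared estimate of the spread, it was -0.67 (adjusted p = 0.0334).

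Cdkn2d (chromosome 9, 21288410 to 21291407, minus strand), the gene of p19Ink4d and the most abundant INK4 gene per length, was lower in GCR than in mock by the largest margin relative to its error among the 9 genes in that comparison. It ran from 6.54 to 21.3 CPM with a median of 15.9 CPM in GCR, against 14.4 to 32.4 CPM with a median of 22.9 CPM in mock. All 7 GCR libraries were below the mock median, but the ranges overlapped through mock replicate 4, whose 14.4 CPM was the one mock value below the highest GCR value. The log2 difference was -0.53 (SE 0.19, 95% interval -0.92 to -0.14), with an unadjusted p of 0.00969 and an adjusted p = 0.0540 by edgeR, just outside the threshold. The high-Rn45s libraries GCR replicates 2, 5 and 6 (8.26, 13.1 and 6.54 CPM) were the 3 lowest in GCR, and mock replicate 4 was high-Rn45s too. Without these 4 libraries the difference was -0.36 (adjusted p = 0.378). With Rn45s and mitochondrial reads left out of the library totals, the 3 were still the lowest of GCR, at 8.07 CPM in replicate 6 and 10.5 CPM in replicate 2, beside 16.9 to 21.9 CPM in the other 4, and mock replicate 4 was at 18.0 CPM. The part of these reads in the difference was not tested further. No GCR library is muscle-rich, against 4 of 7 in mock. Without the muscle-rich libraries no gene passed in this comparison, and the part of muscle in the Cdkn2d difference was not tested. Elsewhere Cdkn2d averaged 20.8 ± 4.23 CPM in silicon + NR, 28.1 ± 9.51 in silicon, 21.6 ± 4.36 in gamma, 20.2 ± 5.63 in mock + NR and 23.6 ± 5.48 in mock. In silicon + NR against silicon the log2 difference was -0.39 (SE 0.20, adjusted p = 0.410), and 1 of 6 silicon + NR libraries was above the silicon median. Its 2 highest silicon libraries, with 45.1 and 35.2 CPM, were lymphoid-rich.

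Cdkn1b (chromosome 6, 134920401 to 134925513, plus strand) encodes p27Kip1, whose amount is set largely by protein turnover. Its group means lay between those of silicon and GCR, with 14.6 ± 3.17 CPM in silicon + NR, 13.2 ± 2.10 in silicon, 17.8 ± 5.04 in GCR, 14.02 ± 3.50 in gamma, 15.05 ± 3.67 in mock + NR and 16.0 ± 3.98 in mock. In GCR against mock the log2 difference was 0.31 (95% interval -0.12 to 0.74), opposite in sign to that of Cdkn2d. The 3 GCR libraries with the most Cdkn1b, at 24.2, 22.7 and 22.3 CPM, were replicates 5, 6 and 3, and the highest mock library was replicate 4 with 23.3 CPM. Of those 4 libraries, 3 are high-Rn45s.

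Cdkn1c (chromosome 7, 143458339 to 143461050, minus strand), the imprinted gene of p57Kip2, is expressed from the maternal copy. It averaged 55.3 ± 15.7 CPM in silicon + NR, 41.1 ± 8.54 in silicon, 56.0 ± 17.5 in GCR, 58.5 ± 16.2 in gamma, 59.3 ± 18.1 in mock + NR and 56.2 ± 15.3 in mock, so silicon had the lowest mean. Silicon libraries ran from 31.1 to 51.9 CPM with a median of 39.5 CPM, against 34.9 to 75.7 CPM with a median of 56.5 CPM in mock, and no silicon library was above the mock median. The log2 difference was -0.43 (SE 0.22, adjusted p = 0.432). In silicon + NR the libraries ran from 33.1 to 72.6 CPM with a median of 56.8 CPM, and the log2 difference from silicon was 0.43 (SE 0.23, adjusted p = 0.436), with 5 of 6 libraries above the silicon median. The test of whether silicon acted differently with NR gave 0.24 (95% interval -0.43 to 0.91) for Cdkn1c. The lowest silicon values, 31.1 and 33.7 CPM, were those of the lymphoid-rich replicates, and without the 3 lymphoid-rich libraries the silicon difference was -0.26 (adjusted p = 0.789). Muscle-rich libraries were 5 of 7 in silicon, 4 of 7 in mock and 2 of 6 in silicon + NR. The part of muscle in the Cdkn1c differences was not tested.

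Cdkn1a, the p53-induced CIP/KIP gene of p21, is no member of the set and is given for comparison. It averaged 137 ± 84.8 CPM in silicon + NR, 163 ± 53.2 in silicon, 94.5 ± 31.2 in GCR, 81.2 ± 9.31 in gamma, 114 ± 86.5 in mock + NR and 132 ± 81.6 in mock, and its adjusted p was 0.567 or more in every comparison by edgeR.

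Rb1 (chromosome 14, 73183673 to 73325822, minus strand), the pocket protein that the CDKs inactivate, ran from 22.02 to 51.1 CPM over all 37 libraries. Group means were 33.5 ± 6.64 CPM in silicon + NR, 37.3 ± 6.05 in silicon, 34.8 ± 6.63 in GCR, 33.6 ± 6.99 in gamma, 31.4 ± 7.64 in mock + NR and 40.7 ± 4.93 in mock. Mock had the highest mean, and the mock + NR libraries, at 25.9, 41.6, 22.02, 33.9 and 33.5 CPM, gave a log2 difference from mock of -0.32 (95% interval -0.71 to 0.06, adjusted p = 0.411). In GCR against mock the difference was -0.03 (-0.38 to 0.33), the narrowest interval in that comparison among the 9 genes.

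Lmnb1 (chromosome 18, 56707813 to 56753424, plus strand), the B-type lamin under the nuclear envelope, had its highest mean in silicon, 18.3 ± 7.42 CPM, against 11.8 ± 3.46 CPM in mock. It ran from 10.7 to 31.2 CPM with a median of 17.2 CPM in silicon, against 6.03 to 17.6 CPM with a median of 11.3 CPM in mock, and 6 of 7 silicon libraries were above the mock median. The log2 difference was 0.62 (SE 0.22, 95% interval 0.18 to 1.07), with an unadjusted p of 0.00695 and an adjusted p = 0.170 by edgeR, so it did not pass. The 2 highest silicon libraries, at 31.2 and 25.2 CPM, were the lymphoid-rich replicates 3 and 6, and without the 3 lymphoid-rich libraries the difference was 0.34 (adjusted p = 0.692). In silicon all 11 T cell genes were higher than in mock (median log2 difference 2.22, 0 called), with a summed level of 26.1 to 1205 CPM, against 30.8 to 107 CPM in mock, and all 9 B cell genes were higher too (2.22, 0 called). The median summed T cell level was 70.0 CPM in silicon and 65.4 CPM in mock. The T cell list means of replicates 3 and 6 were 6.40 and 5.50 log2 CPM. Those of the other silicon libraries were 1.09 to 2.53, against 1.37 to 2.99 in mock. The part of T and B cells in the Lmnb1 difference was not tested. Without the muscle-rich libraries, which leave 2 silicon mice, it was 0.80 (adjusted p = 0.257). The silicon + NR libraries stood close together, from 11.6 to 16.6 CPM with a median of 13.4 CPM, and none was above the silicon median. Their log2 difference from silicon was -0.35 (SE 0.23, adjusted p = 0.542) and from mock + NR, whose libraries had 13.2, 14.2, 8.15, 7.26 and 15.2 CPM, 0.19 (SE 0.24). In GCR Lmnb1 averaged 9.97 ± 4.64 CPM and in gamma 10.7 ± 2.12 CPM.

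Glb1, the lysosomal beta-galactosidase, averaged 16.0 ± 4.36 CPM in silicon + NR, 19.3 ± 7.78 in silicon, 14.6 ± 5.46 in GCR, 20.2 ± 6.91 in gamma, 16.7 ± 4.19 in mock + NR and 15.6 ± 3.78 in mock. The gamma libraries had 21.5, 15.4, 30.5, 21.4 and 12.5 CPM, against 8.99 to 18.7 CPM with a median of 17.1 CPM in mock, and 3 of 5 were above every mock library. Of those 3, replicates 3 (30.5) and 4 (21.4) are the heart-rich libraries. The log2 difference was 0.37 (SE 0.21, adjusted p = 0.571 by edgeR), but 0.14 without gamma replicate 3 and 0.06 (adjusted p = 0.940) without both heart-rich libraries. The 2 highest silicon libraries, at 30.1 and 28.6 CPM, were again the lymphoid-rich replicates 6 and 3.

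**Figure D3:**
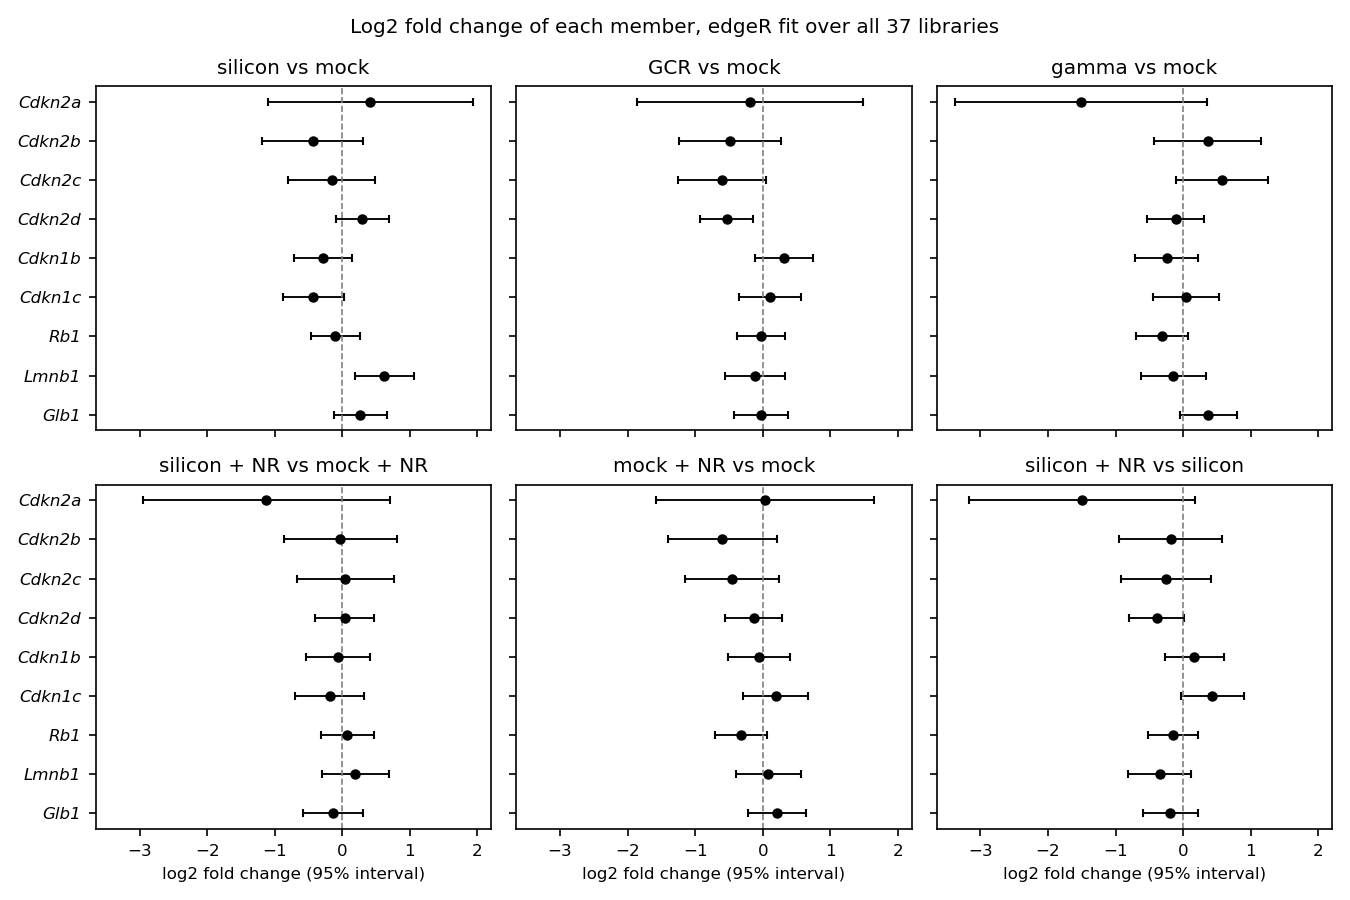
Log2 fold change of each gene with its 95% interval in 6 comparisons, from the edgeR fit over all 37 libraries, with a dashed line at no change. Of the 54 intervals, those of Lmnb1 in silicon against mock (0.18 to 1.07) and Cdkn2d in GCR against mock (-0.92 to -0.14) lie off the line, and those of Cdkn2a are the widest.

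Between female and male mice by label, with gamma replicate 5 among the females, 0 of the 9 genes passed, by edgeR, DESeq2 or voom. None had an unadjusted p under 0.05 by edgeR. The log2 difference of female over male was largest for Glb1, at 0.20 (95% interval -0.06 to 0.45), and the intervals of Cdkn2d (-0.36 to 0.15), Cdkn1b (-0.31 to 0.24), Cdkn1c (-0.32 to 0.27) and Rb1 (-0.36 to 0.11) were narrower than those between radiation groups. For the interaction of silicon and NR the largest difference among the 9 was that of Cdkn2a, -1.54 (SE 1.15), followed by Lmnb1 with -0.43 (SE 0.32), Cdkn2b with 0.41 (SE 0.54) and Glb1 with -0.40 (SE 0.29). All adjusted p-values of these were 0.828 or more by edgeR.

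Across the 9 genes as a list, 4 had a positive and 5 a negative log2 difference in silicon against mock, with a median of -0.10 beside 0.07 over all genes tested. In GCR against mock 2 were positive and 7 negative (median -0.11, all genes -0.06), and in gamma against mock 4 and 5 (median -0.11, all genes -0.01). These 3 comparisons share the mock mice. In silicon + NR against silicon 2 were positive and 7 negative, with a median of -0.19 beside -0.05 over all genes.

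Genes up- and downstream in the pathway were read from lists, and only in GCR against mock did any of them pass. There 15 of the 137 genes on these lists were called, 10.95%, below the 16.6% of all genes, so the calls are values of single genes and nothing is read from them about the pathway. Of 12 E2F factors and pocket proteins, E2f2 rose (log2 difference 0.94, adjusted p = 0.0317) and Tfdp1 (-0.84, adjusted p = 0.0145), the partner of E2F factors on DNA, and E2f6 (-1.58, adjusted p = 0.0323) fell, all by edgeR. Tfdp1 ran from 10.1 to 40.2 CPM with a median of 13.5 CPM in GCR, against 19.9 to 48.8 CPM with a median of 38.0 CPM in mock. Of 13 Polycomb genes, whose products keep the Cdkn2a locus silent, Suz12 (0.61, adjusted p = 0.00841) and Pcgf2 (1.04, adjusted p = 0.0228) rose and Bmi1 (-0.35, adjusted p = 0.0381) fell. Of 10 lamina genes Lemd3 (0.55, adjusted p = 0.0114) and Sun2 (0.89, adjusted p = 0.0367) rose, and of 14 lysosomal glycosidase genes and partners Galc (1.10, adjusted p = 0.00493) and Neu1 (0.34, adjusted p = 0.0377) rose while Ctsa (-0.67, adjusted p = 0.0222), which protects the galactosidase in the lysosome, fell.

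Of 22 genes that senescent cells secrete, 2 rose in GCR, Areg and Gdf15, and none fell, a share of 9.09% beside the 16.6% of all genes. Areg, a ligand of the EGF receptor, ran from 6.54 to 34.1 CPM with a median of 20.3 CPM in GCR, against 2.41 to 7.89 CPM with a median of 4.77 CPM in mock, a log2 difference of 2.15 (SE 0.41, adjusted p = 0.00493 by edgeR). Gdf15, a stress cytokine, had a log2 difference of 1.62 (SE 0.41, adjusted p = 0.0134). Of 14 imprinted genes, Mest (-1.77, adjusted p = 0.0171) and H19 (-8.60, adjusted p = 0.0176) fell. Mest ran from 0.150 to 4.76 CPM in GCR, against 6.28 to 8.16 CPM in mock, so those groups did not overlap. H19 ran from 0.140 to 1.37 CPM in GCR, against 0.170 to 438 CPM in mock, and mock held all 4 of the muscle-rich libraries of this comparison. The summed level of 14 skeletal muscle genes ran from 46.8 to 131 CPM in GCR, against 32.9 to 51388 CPM in mock, and 13 of them were called lower. With the muscle-rich libraries left out, H19 was at -0.67 (adjusted p = 0.843) and Mest at -1.56 (adjusted p = 0.179), and the part of muscle in these values was not tested further. Of 10 squamous epithelium genes 9 were called lower, with a summed level of 30.6 to 184 CPM in GCR, against 44.2 to 2166 CPM in mock, and 4 of 10 ciliated cell genes were called higher. Without the 4 high-Rn45s libraries, or without the muscle-rich ones, none of the 15 list genes named here nor any other gene passed. Without the high-Rn45s libraries the log2 differences of Areg (2.27), H19 (-8.56), Gdf15 (1.54) and E2f6 (-1.44) stayed about as large, whereas those of E2f2 (0.62), Pcgf2 (0.66), Bmi1 (-0.19) and Ctsa (-0.38) shrank by more than 1.5 times. Without the muscle-rich libraries those of E2f2 (0.50), E2f6 (-0.75) and Neu1 (0.12), and of H19 as given, shrank by more than that, while Bmi1 (-0.52) and Sun2 (1.40) were larger. Leaving out GCR replicate 2 alone left 4 of the 15 called, which are Suz12, Lemd3, Galc and Areg, and over 14 such leave-outs of a single library Sun2 was called in 4, Bmi1 and Neu1 in 6 each, E2f6 in 7, E2f2 in 8, and Pcgf2 and Ctsa in 11 each. All 15 kept their sign under every alternative tried.

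No D cyclin or CDK4/6 gene (5 tested), gene of the cyclin E, cyclin A and CDK2 step (5), p27 turnover or FOXO gene (8) or cell cycle gene (34) was called in any comparison between groups. Ccnd3 was nearest among the D cyclins in GCR against mock, at -0.62 (adjusted p = 0.0790). The cell cycle genes, which include Mki67, Top2a and the Mcm helicase genes, were all higher in silicon than in mock, 34 of 34, with a median log2 difference of 0.97 beside 0.07 over all genes, and 23 had an unadjusted p under 0.05. Of all genes 59.5% were higher in that comparison and 12.9% had an unadjusted p under 0.05. The highest means of the list were those of the lymphoid-rich silicon replicates 3 and 6, at 4.45 and 4.05 log2 CPM. Without the 3 lymphoid-rich libraries 28 of 34 were higher, with a median of 0.69, and 1 had an unadjusted p under 0.05. Other markers moved too: beside the T and B cell genes given with Lmnb1, all 14 endothelial genes were lower (median -1.26, 0 called), with a summed level of 423 to 1467 CPM in silicon, against 1101 to 4145 CPM in mock. Of 7 silicon libraries 5 are muscle-rich, and without the muscle-rich ones the median of the cell cycle list was 1.19, with 34 of 34 higher. These counts without kinds of library were chosen after the data had been seen.

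In silicon + NR against silicon all 34 cell cycle genes were lower, with a median of -0.76 beside -0.05 over all genes, and 13 had an unadjusted p under 0.05, as did 12.8% of all genes. All 11 T cell genes were lower as well (median -3.27, 0 called), with a summed level of 7.998 to 42.0 CPM in silicon + NR, against 26.1 to 1205 CPM in silicon, and so were all 9 B cell genes (-3.40, 0 called), with 17.01 to 173 CPM in silicon + NR, against 57.1 to 2506 CPM in silicon. Without the lymphoid-rich libraries 32 of 34 cell cycle genes were lower, with a median of -0.41, and 0 had an unadjusted p under 0.05. Without the muscle-rich ones the median was -1.63 and 1, Rrm2, was called lower. That fit leaves out 5 of 7 silicon and 2 of 6 silicon + NR libraries and called 179 genes in all.

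In gamma against mock 33 of 34 cell cycle genes were lower, with a median of -0.77 beside -0.01, and 7 had an unadjusted p under 0.05, as did 10.02% of all genes. No gamma library is muscle-rich, against 4 of 7 in mock. All 14 skeletal muscle genes were lower (median -7.87, 0 called), with a summed level of 30.2 to 164 CPM in gamma, against 32.9 to 51388 CPM in mock, and so were all 10 squamous epithelium genes (-5.79, 0 called), with 48.4 to 250.4 CPM in gamma, against 44.2 to 2166 CPM in mock. Without the muscle-rich libraries 34 of 34 cell cycle genes were lower, with a median of -0.49, and 0 had an unadjusted p under 0.05.

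In the comparisons other than GCR against mock, the genes nearest to the threshold in each list did not pass by edgeR, and their values are given as such. In silicon against mock the secreted phosphoprotein gene Spp1 was at -1.62 (adjusted p = 0.113), with 13.98 to 79.9 CPM in silicon, against 41.4 to 249 CPM in mock, and 14 of the 22 secretory genes were lower. Without the muscle-rich libraries 16 were lower and 3 of them, Spp1, Vegfa and Hgf, were called. That fit leaves out 5 of 7 silicon and 4 of 7 mock libraries and called 725 genes in all. The mitotic checkpoint gene Bub1b was at 0.96 (adjusted p = 0.158), the imprinted Sgce at -0.68 (adjusted p = 0.156) and Lbr, the lamin B receptor, at 0.29 (adjusted p = 0.303). In gamma against mock 13 of the 14 lysosomal genes were higher, with a median of 0.17 beside -0.01 over all genes. Among them Manba, the lysosomal beta-mannosidase, had 20.01 to 36.3 CPM in gamma, against 10.9 to 27.3 CPM in mock, a log2 difference of 0.44 (adjusted p = 0.300), while Glb1, above, had 0.37. Without the heart-rich libraries 7 of the 14 were higher, with a median of 0.01, and without the muscle-rich ones 8, with a median of 0.01.

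With NR, the 5 genes of the cyclin E, cyclin A and CDK2 step (3 cyclin genes, Cdk2 and the phosphatase gene Cdc25a) were lower in silicon + NR than in silicon, with a median of -0.58 beside -0.05 over all genes. That median was -0.35 without the lymphoid-rich libraries and -0.87 without the muscle-rich ones, where Ccna2 was called lower, among 179 of all genes. Ccne1, which encodes cyclin E1, was at -1.44 (adjusted p = 0.149). The chemokine gene Ccl7 was at -1.17 (adjusted p = 0.0978) and the helicase gene Mcm5 at -1.08 (adjusted p = 0.202). In mock + NR against mock 15 of the 22 secretory genes were lower, with a median of -0.47 beside -0.01, and Spp1 ran from 7.88 to 78.6 CPM in mock + NR, against 41.4 to 249 CPM in mock, a log2 difference of -2.01 (adjusted p = 0.102). In the same comparison 16.9% of all genes had an unadjusted p under 0.05 and marker lists moved with 0 genes called. All 14 endothelial genes were lower (median -1.39), with a summed level of 325 to 1750 CPM in mock + NR, against 1101 to 4145 CPM in mock, all 10 alveolar type 1 genes were lower (-1.15) and so were 10 of 12 macrophage and monocyte genes (-0.38). All 10 ciliated cell genes were higher (1.07), with 1768 to 2840 CPM in mock + NR, against 778 to 1899 CPM in mock. The part of these cells in the secretory values was not tested. Without the muscle-rich libraries 18 of the 22 secretory genes were lower and 2, Spp1 and Vegfa, were called. That fit leaves out 2 of 5 mock + NR and 4 of 7 mock libraries and called 425 genes in all. The Polycomb gene Cbx7 was at 0.51 (adjusted p = 0.1104) and Ccnd2, a D cyclin, at -0.68 (adjusted p = 0.145).

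Lmnb1 and Cdkn2d followed the level of these cell cycle genes from library to library, and that of some other lists too. The mean log2 CPM of the cell cycle list correlated with Lmnb1 at Pearson r = 0.67 over 37 libraries (adjusted permutation p = 0.00027; Spearman rho = 0.56, adjusted permutation p = 0.00450) and with Cdkn2d at r = 0.58 (adjusted permutation p = 0.00205; rho = 0.49, adjusted permutation p = 0.0130). Without silicon replicates 3 and 6, the 2 farthest from the median of the list, r was 0.53 for Lmnb1 and 0.45 for Cdkn2d. Within the 13 muscle-rich libraries r was 0.84 for both genes (adjusted permutation p = 0.00562 each). Within the 24 other libraries it was 0.47 for Lmnb1 (adjusted permutation p = 0.206) and 0.36 for Cdkn2d (adjusted permutation p = 0.330), so there neither passed. Cdkn1c ran the other way, with r = -0.54 (adjusted permutation p = 0.00386; rho = -0.49, adjusted permutation p = 0.0124), -0.39 without those 2 libraries, -0.29 within the muscle-rich and -0.40 within the other libraries, neither of which passed. With the skeletal muscle list, on which the libraries form separate clusters, none of the 9 genes passed within either cluster: the lowest adjusted permutation p was 0.123 among the 24 other libraries (Cdkn1c, r = -0.55) and 0.0638 among the 13 muscle-rich ones (Cdkn2b, r = -0.68, and Cdkn2d, r = 0.67). Over 37 libraries the skeletal muscle and squamous epithelium lists passed with Lmnb1 (r = 0.45 with each) and Cdkn2d (0.46 and 0.43). So they did with Rb1 (0.55 and 0.44) and Cdkn1c (-0.54 and -0.50), at an adjusted permutation p of 0.00386 to 0.0246. The endothelial list passed with Lmnb1 (r = -0.47, adjusted permutation p = 0.0165) and the alveolar type 2 list with Cdkn1c (0.42, adjusted permutation p = 0.0297). None of these passed within muscle-rich libraries or within the others. The p-values of this paragraph and the next are adjusted over 54 relations, 9 genes with 6 lists, and both sides of a relation come from the same libraries. The permutations ignored group and sex, so a difference between groups that both sides share can enter r and its p.

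Cdkn2b followed the lung's own alveolar and vascular genes, though not these alone. Its r was 0.74 with the alveolar type 2 list (adjusted permutation p = 0.00027; rho = 0.73, adjusted permutation p = 0.00027) and 0.67 with the endothelial list (adjusted permutation p = 0.00036; rho = 0.72, adjusted permutation p = 0.00027). Within muscle-rich libraries these were 0.82 and 0.84 (adjusted permutation p = 0.00562 each), and within the others 0.69 (adjusted permutation p = 0.0103) and 0.58 (adjusted permutation p = 0.0366). Without the 2 libraries farthest from the list's median r was 0.69 with the type 2 list and 0.71 with the endothelial list. With the T cell list r was 0.50 outside the lymphoid-rich libraries (adjusted permutation p = 0.0152). It was 0.76 within muscle-rich libraries (adjusted permutation p = 0.00648) and 0.20 within the others (adjusted permutation p = 0.549). Over 37 libraries rho was -0.48 with the skeletal muscle list (adjusted permutation p = 0.0163). With the squamous epithelium list it was -0.46 (adjusted permutation p = 0.0195). With neither did r pass within muscle-rich libraries or within the others. For Cdkn2a and the T cell list the 3 lymphoid-rich libraries form a separate cluster, at a list mean of 5.50 to 6.40 log2 CPM beside at most 2.99 in the others, and within the other 34 libraries r was 0.27 (adjusted permutation p = 0.238). Glb1 and the T cell list had r = 0.45 over 37 libraries (adjusted permutation p = 0.020). That r was 0.84 within muscle-rich libraries (adjusted permutation p = 0.00562) and 0.23 within the 34 (adjusted permutation p = 0.336). Cdkn2a and the cell cycle list had r = 0.67 within the 24 libraries that are not muscle-rich (adjusted permutation p = 0.0103). Within the 34 it was -0.10 (adjusted permutation p = 0.701).

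**Figure D4:**
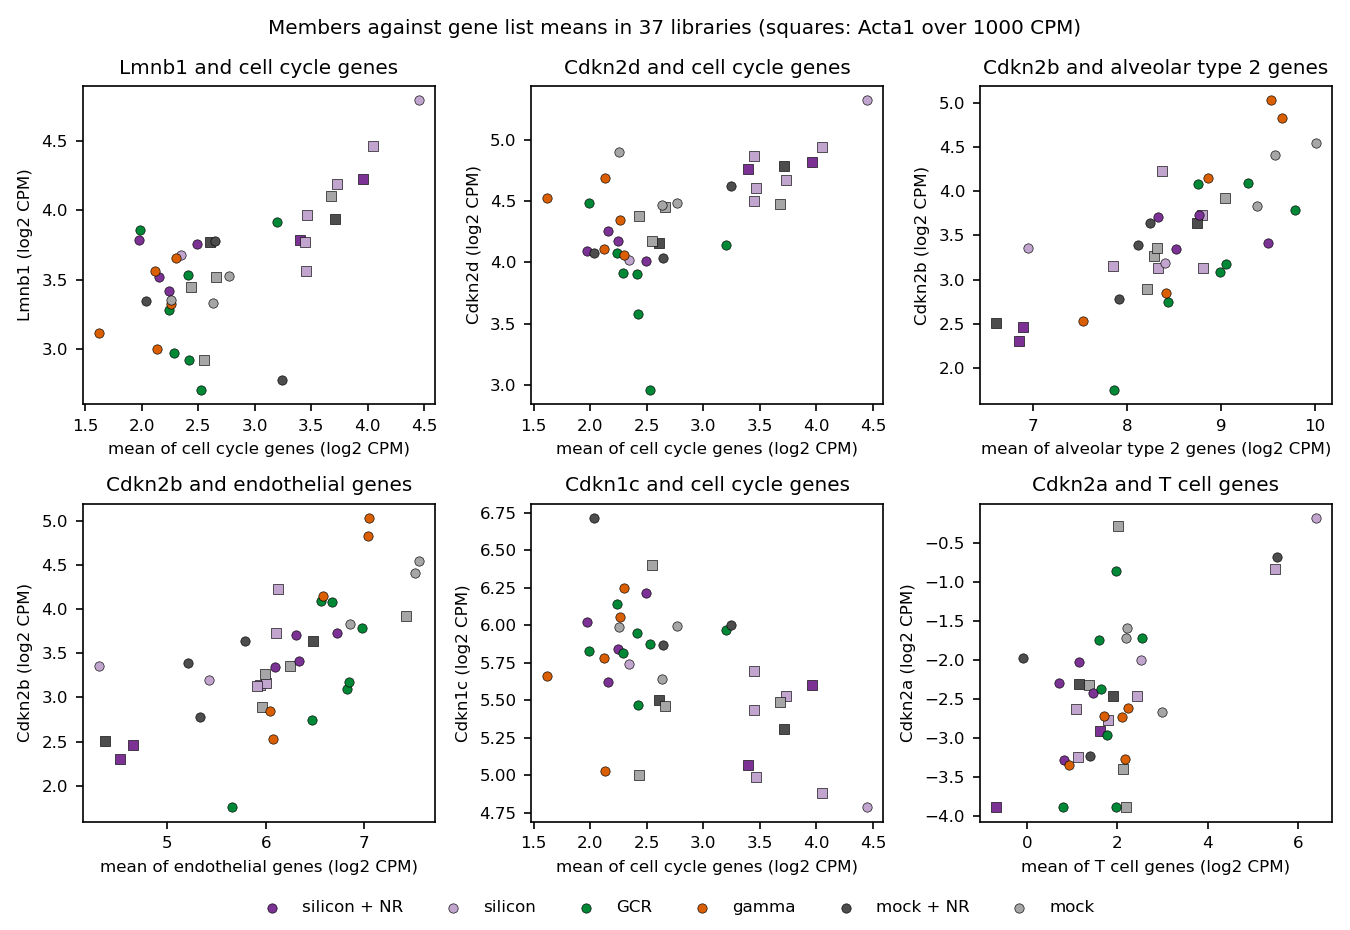
Log2 CPM of a gene against the mean log2 CPM of a gene list in 37 libraries, coloured by group, with squares for muscle-rich libraries. Lmnb1 (r = 0.67) and Cdkn2d (0.58) rise with the cell cycle list and Cdkn2b with the alveolar type 2 (0.74) and endothelial (0.67) lists, Cdkn1c falls with the cell cycle list (-0.54), and 3 lymphoid-rich libraries stand apart in the T cell plot.

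The genes most like each of the 9 over the 37 libraries, by Pearson r of log2 CPM among those of mean log2 CPM 2 or more, are given as a description with no test. The highest were Msn, of the cell cortex, for Cdkn2b (0.91), Nsmce4a for Cdkn2d (0.89), Ppp2r1b for Cdkn2c (0.87), Zfp329 for Cdkn1b (0.87), Vprbp for Rb1 (0.86), Mprip for Cdkn1c (0.83), Lrp10 for Glb1 (0.79), Arhgef1 for Cdkn2a (0.76) and Alyref for Lmnb1 (0.71). Among the next 2 for each gene were the surface peptidase Dpp4 for Cdkn2b (0.87), Map2k1 for Cdkn2d (0.88), the pocket protein gene Rbl1 for Cdkn2a (0.73) and the mitotic ubiquitin enzyme gene Ube2c for Lmnb1 (0.70).

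**Figure D5:**
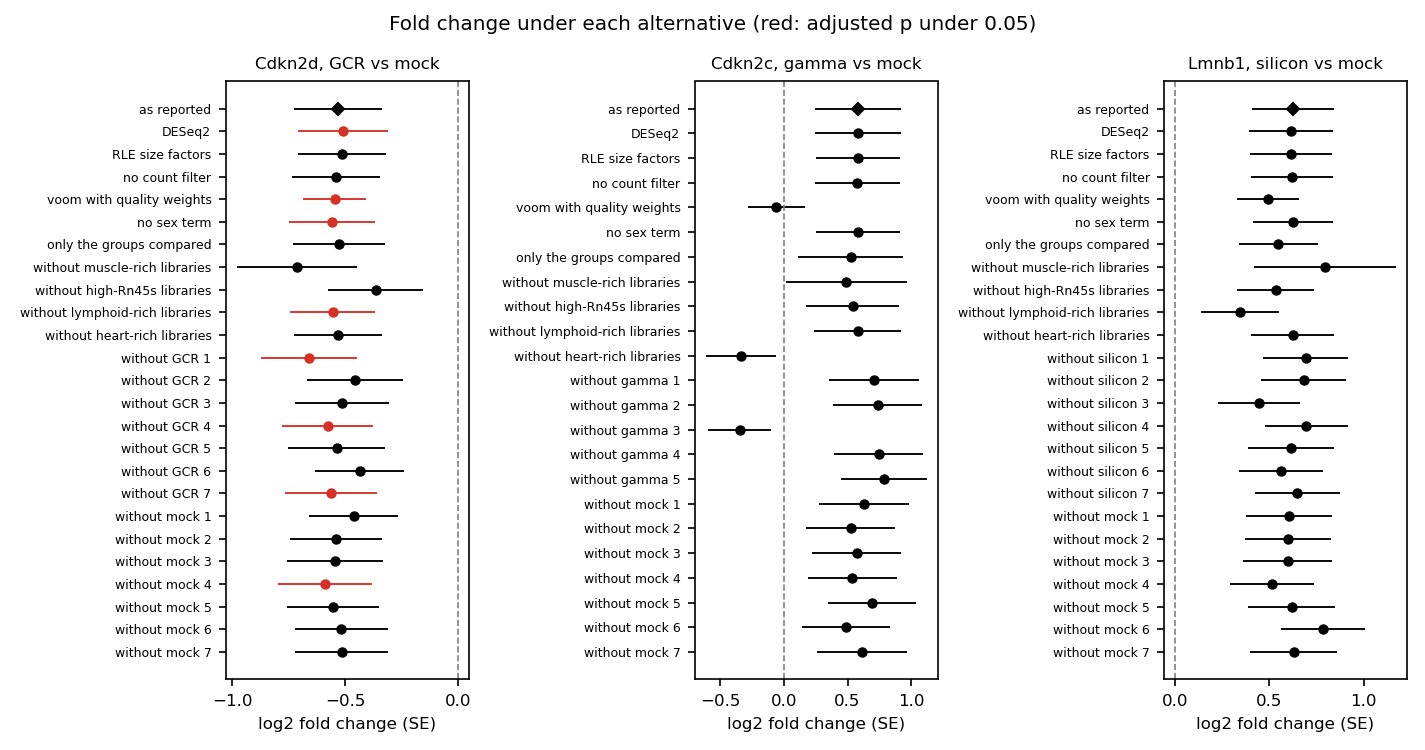
Log2 fold change with its SE for Cdkn2d in GCR against mock, Cdkn2c in gamma against mock and Lmnb1 in silicon against mock, as reported and under each alternative, with those of adjusted p under 0.05 in red. Cdkn2d stays negative, from -0.36 to -0.71, and passes under some settings, Cdkn2c is negative without gamma replicate 3 (-0.35), without both heart-rich libraries (-0.33) and with voom (-0.06), and Lmnb1 stays positive, from 0.34 to 0.80.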

How the data were processed

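Lung total RNA was extracted with Trizol and libraries were made with the SMART-seq v4 and Nextera XT kits, which do not mark strand, per the labels' protocols. The submitters' processing notes name FastQC 0.11.4, MultiQC 1.12, Trimmomatic 0.36, STAR 2.5.2, HTSeq 0.13.5 and mm10, while settings and gene annotation were not given in the sources used here. Values deposited by the authors are raw read counts, 1 row per symbol. From these, CPM, and CPM per kilobase of GENCODE M21 exons, were computed. Groups came from the labels. Within-group pairs of libraries differed beyond sampling noise in all 98 pairs (chi-square per degree of freedom 20.1 to 1054). Counts are not molecules, since no identifiers mark them.

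Tests used edgeR 4.0.16 (R 4.3.3; filterByExpr, TMM, quasi-likelihood, 6 groups and sex over all 37 libraries) with Benjamini-Hochberg adjustment over 16977 genes. All 9 genes passed the filter. DESeq2 1.42.0, limma 3.58.1 (voom), RLE factors, no filter, no sex term, only the groups compared, and fits without library kinds or single libraries were alternatives. Correlations used 100000 permutations, so 1e-05 is the smallest p they can give. The test was tried on simulated counts of 16977 genes. Named list genes are the called ones of smallest p, at most 2 per direction and list, or else 1 that did not pass. Promoter windows of 6 of the 9 genes came from RefSeq. Members and lists were chosen with earlier results of these data known. Each library is a separate mouse by its label, and p-values cover the spread between these mice.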

Additional observations from a re-analysis of the deposited data

Results flagged for a closer look

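Of 54 sets of libraries, 9 genes in 6 groups, 5 held a library that lay far outside the others of its group. The rule was a gap to the next library over a set share of the range. It flags about 1 set in 20 where values are normal and sets are separate. CPM need not be normal and the sets share libraries, so 5 of 54 is not set against that rate. Cdkn2a was 0.589 CPM in mock + NR replicate 4, a lymphoid-rich library, against 0.0377 to 0.150 CPM in the other 4 mice of that group. Cdkn2c was 95.3 CPM in gamma replicate 3, a heart-rich library, against 12.9 to 22.5 CPM in the other 4, among them the other heart-rich library. Rb1 was 51.1 CPM in mock replicate 4, a high-Rn45s library, against 36.4 to 42.0 CPM in the other 6. Rb1 was 24.7 CPM in silicon replicate 1, one of 2 silicon libraries that are not muscle-rich, against 36.2 to 43.6 CPM in the other 6. Rb1 was 46.1 CPM in silicon + NR replicate 4, a muscle-rich library, against 27.5 to 34.3 CPM in the other 5. The part of these tissues in the 5 values was not tested.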

How the results depend on the processing

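Of 216 counts of called genes among the 9 under alternatives, 206 equalled the reported 0 and 10 did not. In GCR against mock the count was 1 under DESeq2, voom with quality weights, no sex term, without lymphoid-rich libraries (each Cdkn2d, log2 difference -0.51 to -0.56, adjusted p = 0.0217 to 0.0488) and without heart-rich libraries (Cdkn2c), and 0 to 1 when single libraries were left out. Cdkn2d passed without GCR replicate 1 (-0.66), GCR replicate 4 (-0.58), GCR replicate 7 (-0.56) or mock replicate 4 (-0.59), and its adjusted p ran from 0.0366 to 0.164 over those leave-outs. In silicon + NR against silicon voom called 3 (Cdkn2d -0.43, Cdkn1c 0.56, Rb1 -0.31), among 4207 of all genes. The cause of these changes was not tested. Of 1905 fold changes under alternatives, 111 that were not called changed sign and no called one did. The number of all genes called in GCR against mock, 2811, was 0 without muscle-rich or without high-Rn45s libraries, 909 in a fit of only these groups, 1516 with voom, 3834 with DESeq2 and 501 to 4087 without single libraries, lowest without GCR replicate 2 and highest without GCR replicate 4. DESeq2 called 425 genes in silicon against mock, 259 in gamma against mock, 591 in mock + NR against mock and 353 in silicon + NR against silicon, where edgeR called 0, 5, 0 and 0 and voom 1, 238, 994 and 4207. Without muscle-rich libraries edgeR called 725, 0, 425 and 179. Without single libraries edgeR called 0 to 307 in silicon against mock (307 without mock replicate 6, 163 without mock replicate 3), 1 to 18 in gamma against mock (18 without gamma replicate 2, 12 without gamma replicate 1 or 5, 1 or 2 without any one mock replicate), 0 to 265 in mock + NR against mock (265 without mock replicate 6) and 0 to 336 in silicon + NR against silicon (336, 249, 127 and 220 without silicon replicates 1, 2, 4 and 5). The interaction of silicon and NR had 0 by edgeR and voom, 327 by DESeq2, 1335 without muscle-rich libraries and 0 to 151 without single libraries (151, 20 and 125 without silicon replicates 2, 4 and 5, and 29 and 147 without mock + NR replicates 2 and 3). No paired analysis was possible because the labels carry no replicate numbers, so numbers only follow the accessions and pair no mice. Depth keeps Cdkn2a levels under 0.0452 to 0.316 CPM from being told from 0 in a library, and its differences between groups are limited also by the spread between mice (biological coefficient of variation 0.871).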
